A study of Danio rerio with 11 samples.

Results

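The comparison described here sets the methylation peaks of zebrafish sperm against those of one-cell embryos. Its members are all 96505 peaks of the sperm list and all 178587 peaks of the one-cell list, 275092 of the 816382 peaks in the 9 peak lists of the series. A peak was called shared when its interval overlapped an interval of the other list by 1 bp or more, and sperm-only or one-cell-only otherwise. These names describe the 2 lists alone and say nothing of the remaining lists, in which such a peak may be present.

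The data came from MBD-seq, in which genomic fragments with methylated CpGs are pulled down by an MBD (methyl-CpG binding domain) protein and sequenced, and places where captured reads pile up are called as peaks. Sperm was pooled from males and the embryos were pooled in large numbers, all from untreated wild-type Tübingen/AB fish, with the sex of the animals given as not applicable. Sperm, one-cell and mbt (mid-blastula transition) embryos each had 1 methylation-enriched library in lane 5, so no difference has a replicate check. All 3 lists were called against a single methylation-poor library, made from adult female brain and run in lane 5, so a feature of that control would enter all of them, and its part in the overlaps was not tested. The study lists fewer usable read pairs for one-cell embryos than for sperm or mbt.

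CpG methylation is placed and copied by DNA methyltransferases and is passed on through cell division. Sperm carries the paternal genome alone. The one-cell embryo holds the paternal and the maternal chromosomes together with the large store of mitochondria laid down in the egg. The embryo divides rapidly without much transcription until the mid-blastula transition, when its own genome is switched on. An egg list was not analysed here, so a peak that is one-cell-only cannot be assigned to the maternal chromosomes.

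The files give each peak as an interval of 201 bp on the Zv9 build, 100 bp to either side of the peak center, with a score from the peak caller and no gene name. One sperm interval was narrower. The score has no stated unit and is used here only to rank peaks within their own list. By bisulfite sequencing of selected regions in older embryos, the study saw no relation of this score to the amount of methylation. A high-scoring peak is therefore not read here as a more methylated one. Its median was 78.1 in sperm, with quartiles of 27.3 and 191, and 27.9 in one-cell embryos, with quartiles of 14.2 and 50.6. The lowest score was 1.35 in sperm and 1.32 in one-cell embryos. Because the one-cell list was 185% as long as the sperm list, the main results are also given at equal numbers, with the one-cell and mbt lists limited to their 96505 highest-scoring peaks. Values are for the full lists wherever equal numbers are not named. The lowest one-cell score kept in this way was 25.2.

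Most sperm peaks had a counterpart in one-cell embryos, whereas most one-cell peaks had none in sperm. Of the sperm peaks, 78079 overlapped a one-cell peak, which is 80.9% (95% CI 80.7 to 81.2, Wilson). Intervals on shares cover counting error only, here and below. The same number of one-cell peaks was shared, since every shared interval met a single partner, and this was 43.7% of the one-cell list (95% CI 43.5 to 44.0). That left 18426 sperm-only and 100508 one-cell-only peaks. At equal numbers 63888 peaks were shared, 66.2% of either list (95% CI 65.9 to 66.5), with 32617 peaks on each side alone. These unmatched counts are equal by construction, since the lists were of one length and each shared peak had a single partner.

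The shared peaks lay close together. Their centers were a median of 25 bp apart, with 10 bp and 51 bp as the quartiles. The one-cell-only peaks ranked low in their list, and the sperm-only peaks less so. The median score of the one-cell-only peaks was 17.7, against 49.1 for the shared peaks of the same list. In sperm the medians were 52.3 for the sperm-only and 84.9 for the shared peaks. In rank terms, the median one-cell-only peak stood at percentile 32.8 of its list and the median sperm-only peak at percentile 39.7.

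When each list was divided into 10 parts by score, the share of one-cell peaks found in sperm climbed from 11.1% in the lowest part to 85.0% in the ninth. It was 84.5% in the highest part. The share of sperm peaks found in one-cell embryos varied far less, from 70.2% in the lowest part to 86.1% in the ninth, and was 80.2% in the highest. Both lists thus had a smaller share of partners among their highest-scoring peaks than in the part just below, slightly in one-cell embryos and more so in sperm. Counting a center of the other list within 1 kb instead, the highest parts reached 95.9% in sperm and 97.0% in one-cell embryos. At equal numbers both curves took the same form, from 42.0% to 84.5% in sperm and from 35.2% to 86.5% in one-cell embryos for the lowest and the ninth parts.

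**Figure D1:**
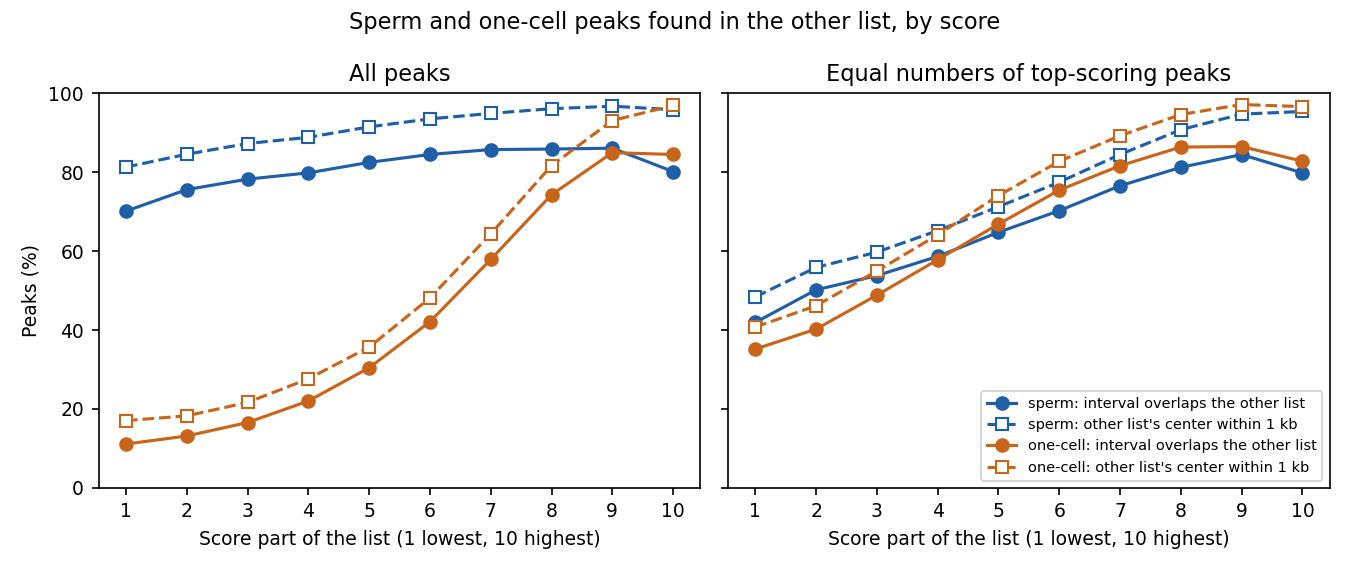
Share of sperm (blue) and one-cell (orange) peaks found in the other list, in % on the vertical axis, for 10 parts of each list ordered by score, with all peaks on the left and equal numbers of top-scoring peaks on the right. Filled circles count overlapping intervals and open squares count centers within 1 kb. With all peaks the one-cell curve climbs from 11.1% to above 84%, whereas the sperm curve stays between 70.2% and 86.1%.

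Some top-scoring peaks are named as examples. The highest-scoring peak of both lists was the same, chr20:55787178-55787378, with a score of 1383.11 in sperm and 815.84 in one-cell embryos and identical centers. It was also found in mbt, 3dpf, eye, heart and liver, and not in brain. The next shared peaks by score were chr4:43902617-43902817 and one on an unplaced scaffold in sperm, and chr5:1193642-1193842 and chr24:158826-159026 in one-cell embryos. All 4 were found in all 6 other untreated lists.

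The highest-scoring peaks without an overlap all had a peak of the other list within 5 kb. The highest-scoring sperm-only peak, chr20:54713178-54713378 with a score of 739.19, was found in none of the 6 other untreated lists, and its nearest one-cell center was 1114 bp away and its nearest mbt center 950 bp away. The second, chr15:13447207-13447407, lay 4036 bp from the nearest one-cell peak and was found in mbt and 3dpf. The third, chr4:61296539-61296739, lay 3162 bp from the nearest one-cell peak and was found in mbt, 3dpf and heart. That one-cell peak was itself the highest-scoring one-cell-only peak, chr4:61299701-61299901, with a score of 769.71 and a different sperm peak 234 bp from its center. Another, chr17:1176721-1176921, was 350 bp from a sperm center. The remaining one-cell-only peak of this rank, on an unplaced scaffold, was 1754 bp from a sperm center. These few peaks do not stand for their classes. In the highest score part, 79.3% of sperm-only and 80.3% of one-cell-only peaks had a center of the other list within 1 kb.

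Distance to the other list set the 2 classes apart in the full lists, but hardly at equal numbers. The median distance from a sperm-only center to the nearest one-cell center was 930 bp, with quartiles of 465 bp and 2050 bp. For one-cell-only centers the median distance to sperm was 4448 bp, with quartiles of 1860 bp and 10022 bp. Of the sperm-only peaks, 9840 had a one-cell center within 1 kb, 7633 had the nearest one 1 to 10 kb away and 953 had none within 10 kb. Of the one-cell-only peaks, 12044, 63158 and 25306 fell into these distance classes. Only 0.988% of all sperm peaks therefore lay more than 10 kb from any one-cell peak, or on a sequence without one, against 14.2% of the one-cell peaks. In lists of one length the order turned and the difference was small, with 8.05% of the sperm and 6.84% of the one-cell peaks. The median distances were then 3019 bp for sperm-only and 3235 bp for one-cell-only peaks. A longer list leaves fewer places far from any of its peaks, so the distances from the full lists are not comparable in that respect.

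**Figure D2:**
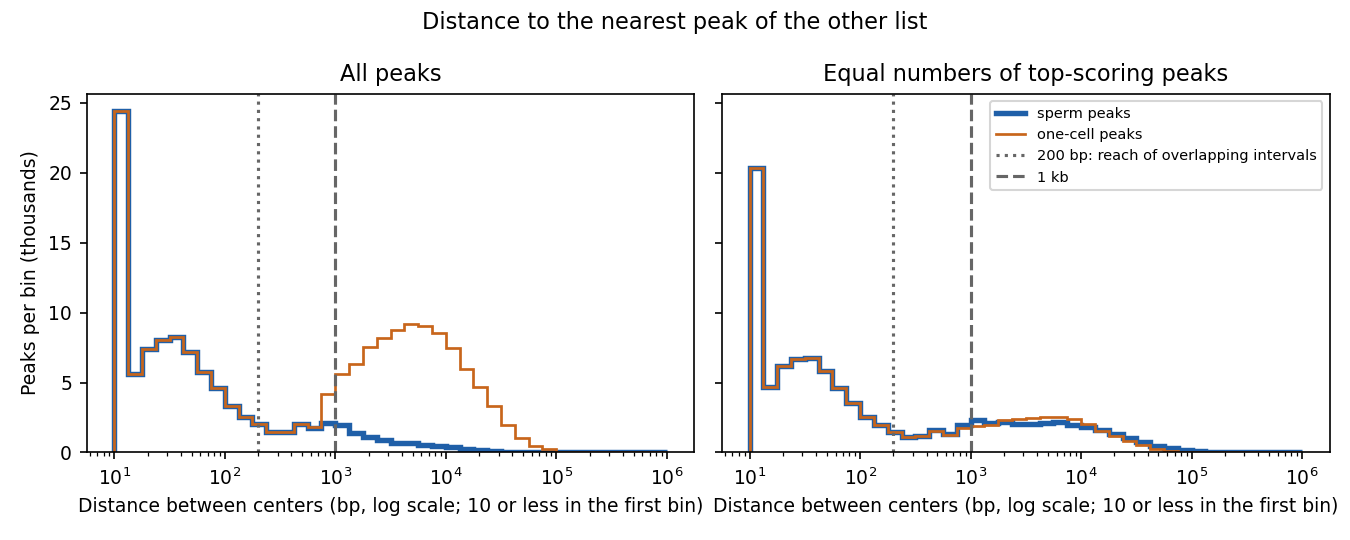
Number of peaks (in units of 1000 per bin, vertical axis) by the distance from each center to the nearest center of the other list (bp, log scale), for sperm (blue) and one-cell (orange) peaks, with all peaks on the left and equal numbers on the right. The shared peaks lie left of the dotted line, where the curves coincide and the first bin also holds every distance of 10 bp or less, and with all peaks the one-cell list has a further large hump around several kb that is much smaller at equal numbers.

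The sperm-only peaks near a one-cell center scored as high as shared peaks, and those farther away scored lower. Their median score was 91.2 within 1 kb, 33.2 at 1 to 10 kb and 22.1 beyond 10 kb. For one-cell-only peaks the medians were 36.6, 16.9 and 16.0. In both lists the share of unmatched peaks that had a neighbour of the other list within 1 kb was largest in the highest score part, 79.3% in sperm and 80.3% in one-cell embryos.

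Where a sperm peak and a one-cell peak were each other's nearest unmatched neighbour within 1 kb, later lists more often had their peak at the sperm position. There were 9075 such pairs, with centers a median of 461 bp apart. An mbt peak overlapped the sperm interval alone in 63.7% of them (95% CI 62.7 to 64.7), the one-cell interval alone in 18.1% (95% CI 17.3 to 18.9), both in 7.91% and neither in 10.23%. In 3dpf embryos, whose list was called against a methylation-poor library of their own, the sperm interval alone was overlapped in 52.6% and the one-cell interval alone in 14.9%. The shares for these positions were 60.1% and 10.21% in brain, 43.5% and 7.89% in eye, 46.2% and 8.18% in heart, and 46.5% and 7.97% in liver. At equal numbers, with 6962 pairs, mbt overlapped the sperm interval alone in 66.4% and the one-cell interval alone in 17.1%. The order was thus the same in all 6 lists searched. Over the full lists, too, sperm peaks were found more often than one-cell peaks in all 6. The shares were 85.7% against 55.6% in mbt, 64.9% against 30.9% in brain and 40.6% against 18.7% in eye. At equal numbers those in mbt were 80.7% and 69.2%. How far this general difference enters the pairs was not tested. From technical replicates the study reported that peak width varied mainly with experimental factors, whereas peak location was reproducible. The called widths are not in the lists, so their part in these offsets was not tested. The median peak of the pairs stood at percentile 57.7 of the sperm list and 72.3 of the one-cell list with all peaks, and at 68.5 and 64.7 at equal numbers, so which partner ranked higher turned with list length.

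Peaks were spread over 1344 complete 1-Mb windows on the 25 numbered chromosomes, and no window was empty in either list. Sperm had between 13 and 193 peaks per window, with a median of 60, and one-cell embryos between 33 and 281, with a median of 115. The coefficient of variation over windows was 48.1% in sperm and 37.3% in one-cell embryos. At equal numbers it was 49.0% in one-cell embryos, with between 14 and 190 peaks per window and a median of 59. The more even spread of the full one-cell list was therefore not seen when its 96505 top-scoring peaks were set against the whole sperm list. With each list cut at its own median score, the coefficient was 59.3% in sperm and 50.3% in one-cell embryos. The one-cell list was then still the longer, and few peaks per window raise this measure by counting alone. Windows are not replicates, and these are descriptions of 1 library each.

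The 82082 one-cell peaks below the equal-number limit were more evenly spread than those above it. Their coefficient of variation was 29.5%, and their variance over windows was 5.05 times their mean. For comparison this ratio, which is 1 for independent placement, was 15.6 for all sperm peaks and 16.3 for the top-scoring one-cell peaks. Of these low-scoring one-cell peaks 17.3% overlapped a sperm peak (95% CI 17.0 to 17.5) and 30.1% an mbt peak (95% CI 29.8 to 30.4). In brain 11.1% of them were found, and in eye 5.99%. For all one-cell peaks the shares were 43.7% in sperm, 55.6% in mbt, 30.9% in brain and 18.7% in eye.

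By the coefficient of variation, the classes differed in spread in the same direction at both list lengths. With all peaks, the coefficient of variation was 68.7% for sperm-only peaks, 32.5% for one-cell-only peaks and 47.2% for shared peaks. Few peaks per window raise this measure by counting alone, and sperm-only peaks numbered a median of 11 per window, against 67 for one-cell-only peaks. At equal numbers, where both classes held 32617 peaks, it was 57.6% for sperm-only and 47.8% for one-cell-only peaks, and the ratio of variance to mean was 7.52 and 5.28. With all peaks that ratio went the other way, 6.03 for sperm-only and 7.51 for one-cell-only peaks. Sperm-only peaks were thus the more unevenly placed by both measures at equal numbers only.

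The ratio of one-cell to sperm peaks per window, with 1 added to each count, had a median of 1.92 with all peaks and of 1.02 at equal numbers. With all peaks, 5% of windows lay below 1.45 and 5% above 2.65, and at equal numbers these limits were 0.726 and 1.35. The windows with the highest ratios had few sperm peaks. The highest ratio was 4.13, at chr7:27000001-28000000, with 14 sperm and 61 one-cell peaks. Next were chr7:35000001-36000000 with 17 and 73, and chr19:39000001-40000000 with 32 and 115. Among windows of the equal lists the highest was chr8:26000001-27000000, with 22 sperm and 43 one-cell peaks.

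Windows with relatively few one-cell peaks were gathered on few chromosomes. At equal numbers, 26 of the 1344 windows (1.93%) had a ratio of 0.5 or less, and 19 of these were on chromosome 4 and 2 on chromosome 7. No window had a ratio of 2 or more. With all peaks the lowest ratio was 0.987, so no window was at 0.5 or less. Only the one-cell list was cut by score for these ratios, and the part of that cut in the low windows was not tested. The lowest ratio at equal numbers was 0.238, at chr4:57000001-58000000, with 62 sperm peaks and 14 one-cell peaks. It was followed by chr7:3000001-4000000, with 89 and 22 peaks, and chr4:49000001-50000000, with 68 and 19. The remaining 5 were single windows on chromosomes 3, 9, 16, 17 and 22.

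The 19 low windows of chromosome 4 lay between positions 29000001 and 58000000, in the long arm of a chromosome known in zebrafish for late replication and many repeats. They held 1350 sperm peaks against 531 of the top-scoring one-cell peaks, and 816 of the top-scoring mbt peaks. The other 43 windows of that chromosome held 2421 sperm, 2302 one-cell and 2329 mbt peaks. In the full lists the low windows held 1673 one-cell peaks, or 1.24 per sperm peak, against 1.87 in the other windows. One-cell peaks were thus present there, though fewer per sperm peak than in the other windows. Few of them were top-scoring, which is how these windows were picked. Brain had 1749 peaks in the low windows, more than sperm, and 2403 in the others, nearly as many as sperm. The other later lists, which differ in length, had fewer peaks than sperm in the low windows. For low and other windows, the full mbt list had 1027 and 2977, and 3dpf 1014 and 2587. Eye had 816 and 1300, heart 872 and 1382, and liver 911 and 1360. On chromosome 7, the windows chr7:3000001-4000000 and chr7:5000001-6000000 held 198 sperm peaks, 56 top-scoring one-cell peaks, 100 top-scoring mbt peaks and 184 brain peaks. The full lists had 227 one-cell peaks there, more than sperm, and 124 mbt peaks.

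These 26 windows were picked by the ratio of the lists, so their low one-cell counts are a description. Of the 1879 sperm peaks in these windows, 71.5% overlapped a brain peak, against 64.6% of sperm peaks elsewhere on the numbered chromosomes. The share found in mbt was 57.6% against 86.6%, and that in 3dpf 56.1% against 78.0%. The median sperm score was 34.6 there and 80.1 elsewhere, and its part in these shares was not tested. The median score of one-cell peaks, which the choice of windows bears on directly, was 15.9 there and 28.2 elsewhere.

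**Figure D3:**
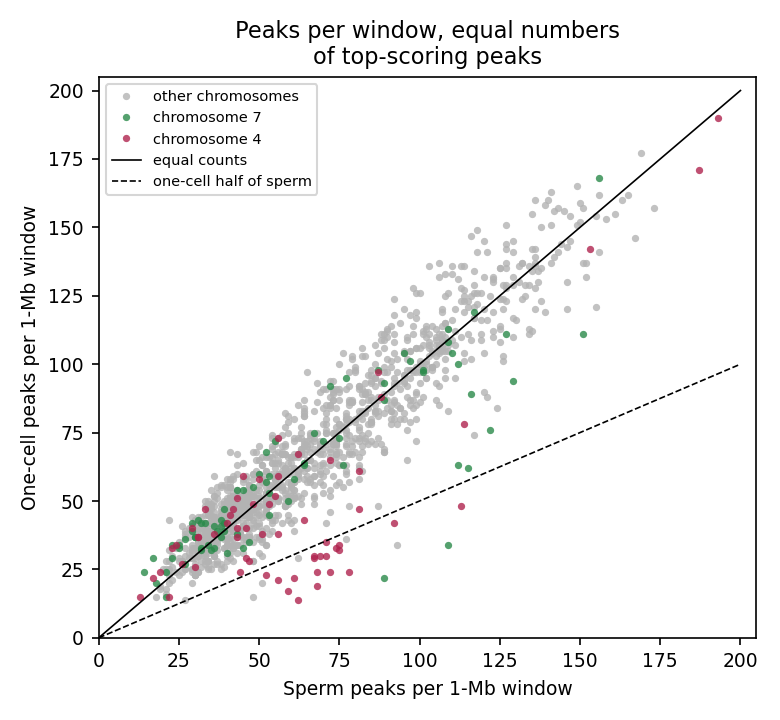
Sperm peaks (horizontal axis) and one-cell peaks (vertical axis) in each of 1344 windows of 1 Mb, at equal numbers of top-scoring peaks, with chromosome 4 in red, chromosome 7 in green and the others in grey. The solid line marks equal counts and the dashed line a ratio of 0.5; of the 26 windows with a ratio of 0.5 or less after adding 1 to each count, 19 are on chromosome 4.

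The windows with the most unmatched peaks had more peaks of the list concerned than the median window. Sperm-only peaks were most frequent at chr4:58000001-59000000, where 60 of 187 sperm peaks had no one-cell overlap, at chr4:59000001-60000000, with 51 of 193, and at chr7:2000001-3000000, with 47 of 112. The end of chromosome 4 beyond the low windows was thus dense in both lists, with 266 and 281 one-cell peaks in its 2 windows named here. One-cell-only peaks were most frequent at chr23:2000001-3000000, with 164 of 277 one-cell peaks, at chr11:5000001-6000000, with 144 of 245, and at chr12:48000001-49000000, with 142 of 240. At equal numbers the window with the most sperm-only peaks was chr7:5000001-6000000, with 80 of 109, which is among the low windows described above. That with the most one-cell-only peaks was chr4:59000001-60000000, with 68 of 190.

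By chromosome, the share of sperm peaks that were sperm-only was highest on chromosome 4, 29.6% (95% CI 28.1 to 31.1), and lowest on chromosome 23, 15.5% (95% CI 14.3 to 16.7). At equal numbers these chromosomes were again the highest and lowest, with 51.5% and 26.7%. The share of one-cell peaks that were one-cell-only varied less, from 54.4% on chromosome 22 to 58.2% on chromosome 18, and at equal numbers from 32.3% on chromosome 20 to 35.7% on chromosome 13. On unplaced scaffolds and the mitochondrial sequence, 24.1% of 4163 sperm peaks and 53.0% of 6720 one-cell peaks had no partner.

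Within 5 Mb of a chromosome end, a zone of 18.4% of the chromosome length covered, lay 29.7% of sperm and 26.9% of one-cell peaks. At equal numbers the one-cell share was 29.3%. Shared peaks had 29.3% of their number in these zones, sperm-only peaks 31.7% and one-cell-only peaks 25.04%. With lists of one length the shares were 30.2%, 28.8% and 27.5%. Peaks of all classes were thus denser near the ends and one-cell-only peaks least so, whereas the order of shared and sperm-only peaks turned with list length.

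The spacing of peaks followed the number of peaks. The median distance from a center to the next center of the same list was 7826 bp in sperm and 4661 bp in one-cell embryos. At equal numbers it was 7782 bp in one-cell embryos, 44 bp less than in sperm. The upper and lower quartiles were 17624 bp and 3248 bp in sperm, and 17142 bp and 3480 bp in one-cell embryos at equal numbers. Gaps above 50 kb made up 5.06% of the gaps in sperm and 5.003% in one-cell embryos at equal numbers, against 0.786% in the full one-cell list. The longest gap was 465117 bp in sperm and 464974 bp in the full one-cell list.

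At short range the lists differed more. No centers of a list were closer than 506 bp in sperm and 533 bp in one-cell embryos. Gaps of 1 kb or less were 1.88% of the sperm gaps, 3.43% of the one-cell gaps and 1.33% of the one-cell gaps at equal numbers. The median gap was 0.539 times the mean gap in sperm and 0.538 times in one-cell embryos at equal numbers. By that measure the top-scoring one-cell peaks were clustered to a like degree.

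**Figure D4:**
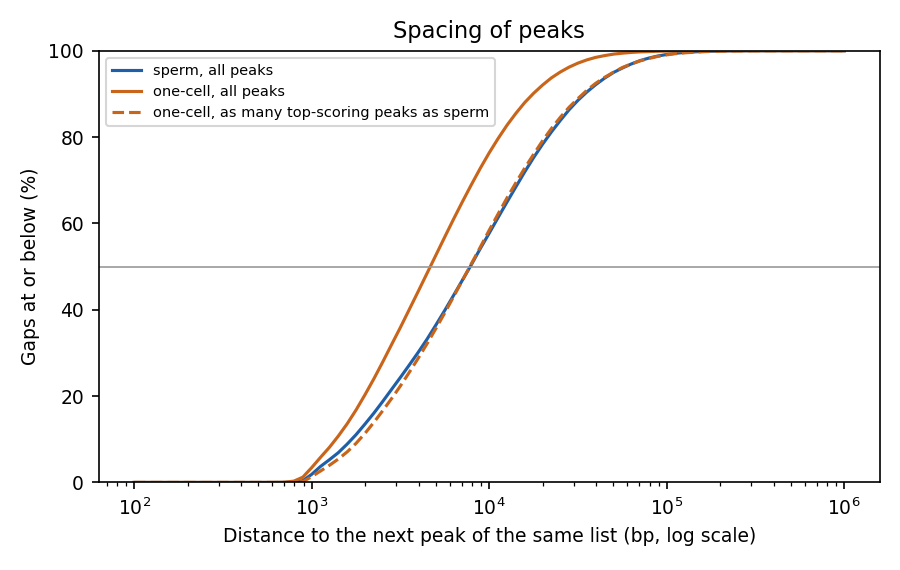
Cumulative share of gaps (%, vertical axis) by distance to the next peak of the same list (bp, log scale), for sperm (blue), all one-cell peaks (orange) and as many top-scoring one-cell peaks as sperm has (dashed). The medians are 7826 bp, 4661 bp and 7782 bp, and the dashed curve lies close to the sperm curve.

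Within their own list, sperm-only peaks had their next peak nearer than shared peaks had, and one-cell-only peaks a little farther. The median gap was 6540 bp after a sperm-only peak and 8109 bp after a shared sperm peak. It was 4784 bp after a one-cell-only peak and 4510 bp after a shared one-cell peak. The same order held at equal numbers, with 7310 bp and 8061 bp in sperm, and 8048 bp and 7643 bp in one-cell embryos. Short gaps did not follow that contrast. Gaps of 1 kb or less came after 2.97% of the sperm-only and 1.62% of the shared sperm peaks, and after 3.88% of the one-cell-only and 2.86% of the shared one-cell peaks. At equal numbers the shares were 2.68% and 1.47% in sperm, and 1.61% and 1.19% in one-cell embryos.

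Counting only peaks of the same class, sperm-only peaks were a median of 36323 bp apart and one-cell-only peaks 8605 bp. At equal numbers of peaks and equal class sizes the medians were 21374 bp and 24001 bp. The lower quartile was 7190 bp for sperm-only and 9686 bp for one-cell-only peaks, and 1.36% and 0.519% of the gaps were 1 kb or less. At equal numbers sperm-only peaks were thus more often grouped with one another, as their spread over windows also showed.

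Shared peaks were largely found again at mbt, sperm-only peaks in most cases and one-cell-only peaks in a minority. Of all sperm peaks 85.7% overlapped an mbt peak, and of all one-cell peaks 55.6%. For shared peaks the share was 91.3% of the sperm intervals and 90.9% of the one-cell intervals. For sperm-only peaks it was 62.2% (95% CI 61.5 to 62.9), or 11463 of 18426. For one-cell-only peaks it was 28.2% (95% CI 27.9 to 28.5), or 28347 of 100508. At equal numbers, where 80.7% of sperm and 69.2% of one-cell peaks were found in mbt, the shares were 60.2% for sperm-only and 27.2% for one-cell-only peaks. The order of the classes did not depend on list length.

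Some of the peaks not overlapped at mbt had an mbt peak close by. With an mbt center within 1 kb counted, 76.4% of the sperm-only and 40.6% of the one-cell-only peaks had one. Among sperm-only peaks without a one-cell center within 1 kb, 52.7% overlapped an mbt peak, and among the corresponding one-cell-only peaks 28.4%. Of the 953 sperm-only peaks with no one-cell center within 10 kb, 37.1% were found in mbt (95% CI 34.1 to 40.3), and of the 25306 corresponding one-cell-only peaks 27.7% (95% CI 27.2 to 28.3). The difference between the classes was thus smallest for the most isolated peaks. For the isolated peaks of the equal lists the shares were 52.2% and 28.4%.

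The share found at mbt varied with the score. Among sperm-only peaks it was 31.2% in the lowest of the 10 score parts of the sperm list, 81.3% in the eighth and 73.4% in the highest. Among one-cell-only peaks it was 11.7% in the lowest part, 51.6% in the eighth and 29.6% in the highest. At equal numbers the one-cell-only share was 19.0% in the lowest part, 37.0% in the seventh and 29.2% in the highest. With an mbt center within 1 kb counted, the highest parts had 94.0% and 87.3%. Most of the highest-scoring unmatched peaks of both lists thus had an mbt peak close by. Shared peaks reached 97.9% in the eighth part of sperm and 96.1% in the ninth part of one-cell embryos.

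From the side of mbt, 71198 of its 122477 peaks overlapped both lists, which is 58.1%. A further 22.9% overlapped one-cell embryos alone, 9.43% sperm alone and 9.505% neither. With the lists limited to one length these shares were 60.2%, 8.997%, 20.4% and 10.4%, so the order of the one-sided classes turned with list length. The mbt peaks found in sperm alone ranked higher in the mbt list than those found in one-cell embryos alone. Their median percentile was 60.6 against 20.7 with all peaks, and 44.3 against 16.9 at equal numbers. Peaks found in both stood at percentile 64.7, and peaks found in neither at 16.9.

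Sperm-only peaks were found more often than one-cell-only peaks in older embryos and adult tissues too, whose lists were not cut to equal length. In 3dpf (3 days post-fertilization) embryos 60.7% of sperm-only and 14.0% of one-cell-only peaks were found, against 77.3% of all sperm and 43.0% of all one-cell peaks. In brain the shares were 58.3% and 3.88%, against 64.9% and 30.9% for the whole lists. In eye 40.3% of the sperm-only and 2.08% of the one-cell-only peaks were found, against 40.6% and 18.7%. Heart held 43.4% and 2.27%, against 44.6% and 20.6%, and liver 43.6% and 2.22%, against 44.7% and 20.7%. Of the shared sperm peaks 40.6% were found in eye, 44.9% in heart and 45.0% in liver, close to the sperm-only shares in the full lists. At equal numbers the shared peaks were found more often, in 42.9%, 47.3% and 47.4% of cases, against 36.0%, 39.3% and 39.4% of the sperm-only peaks. The adult tissues came from females, and the eye, heart and liver lists were called against a methylation-poor brain library of lane 4. The brain list pooled lanes 4 and 5.

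At equal numbers 6.30% of the one-cell-only peaks were found in brain, 4.27% in eye, 4.48% in heart and 4.50% in liver. For the whole one-cell list of that length the shares were 47.7%, 29.5%, 32.5% and 32.6%. The one-cell-only share depended on score. In brain it was 2.62% in the lowest score part and 26.4% in the highest, and in eye 1.02% and 28.1%. The sperm-only share in brain was 55.9%, against 64.9% of all sperm peaks. In 3dpf embryos the shares were 62.3% for sperm-only and 26.8% for one-cell-only peaks, against 77.3% and 64.7% for the whole lists. One-cell-only peaks close to a sperm peak were found in brain more often than the rest. Of the one-cell-only peaks with a sperm center within 1 kb, 16.5% were found in brain at equal numbers, and of those without one 3.20%. In the full lists the shares were 12.95% and 2.65%.

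**Figure D5:**
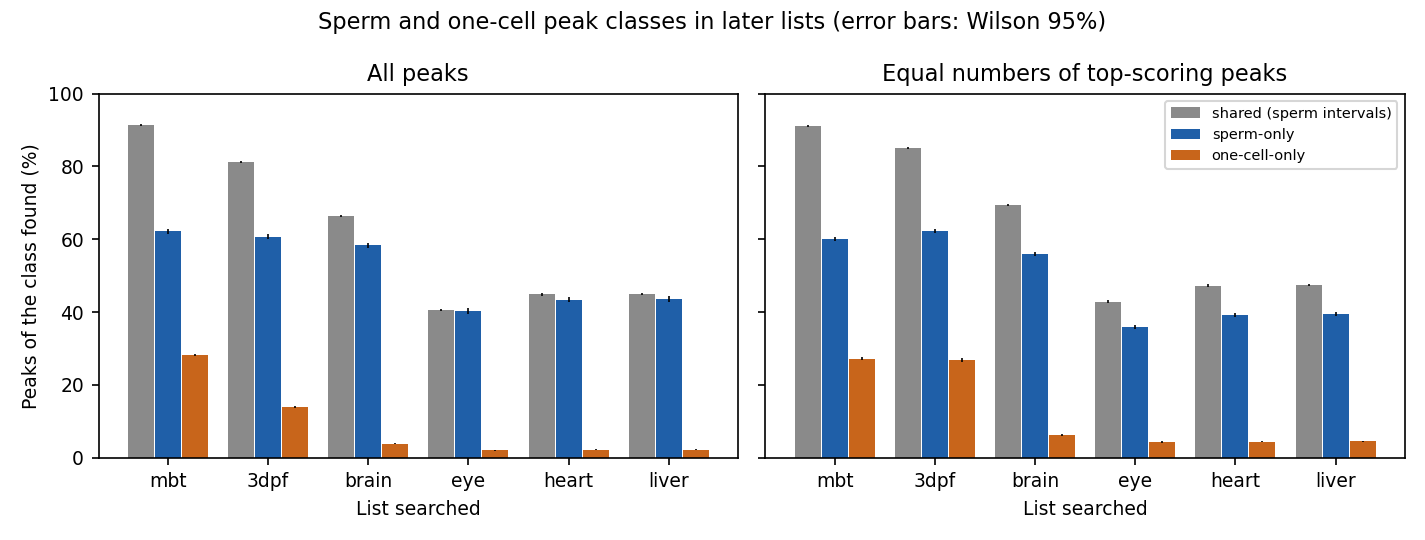
Share (%, vertical axis) of shared (grey, sperm intervals), sperm-only (blue) and one-cell-only (orange) peaks that overlap a peak of mbt, 3dpf, brain, eye, heart or liver, with all peaks on the left and equal numbers of top-scoring sperm, one-cell and mbt peaks on the right. Error bars are Wilson 95% intervals for counting error; one-cell-only bars are the lowest in every list, at 28.2% in mbt and 2.08% in eye with all peaks.

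Single isolated peaks are named as examples only and do not stand for their classes, since all 6 were found in mbt. They were picked after the values were seen, as the 3 highest-scoring peaks on numbered chromosomes with no center of the other list within 10 kb. Of the sperm peaks, chr23:36300173-36300373, with a score of 341.78, and chr19:50076044-50076244, with 252.99, were found in all 6 lists from mbt to liver, and chr13:49587890-49588090, with 261.11, in mbt and 3dpf. Of the one-cell peaks, chr4:39787289-39787489, with a score of 211.22, and chr21:43709818-43710018, with 181.17, were found in mbt alone, and chr4:48564369-48564569, with 153.1, in mbt and 3dpf. All 6 had an mbt center no more than 29 bp away.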

How the data were processed

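The deposited lists hold MACS2 peak scores without a stated unit. The authors aligned paired reads to Zv9 with BWA 0.5.8c, filtered them on proper pairing and mapping quality, called peaks with MACS2 2.0.10.20120703 and set each interval to 100 bp either side of the peak center. The lists carry no read depth. Python 3.11.15 with NumPy 2.4.6, pandas 2.3.3 and SciPy 1.17.1 served to compute overlaps, distances between centers, counts in complete 1-Mb windows and spacing. Overlaps were checked against bedtools 2.31.1, and overlaps, distances and spacing were tested on simulated lists. The window counts were not checked in these ways. Chromosome lengths are the largest peak end in any list. Ties in score were broken by position. Shares have Wilson 95% intervals. With 1 library per condition no test between conditions was made. Windows, chromosomes and peaks were named by rank (most unmatched peaks, extreme ratios among windows with at least 20 peaks, highest scores). The members and rules were chosen with earlier results of these data known. No genome sequence or annotation of Zv9 was used here, so no gene is named and no sequence is shown.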

Additional observations from a re-analysis of the deposited data

How the results depend on the processing

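Of 50 alternative values for 8 results, 13 stayed within the 95% interval of the value reported, or were identical to it, and 37 did not. Some of the 13 could not have moved. These are the sperm coefficient of variation and spacing at equal numbers, and both coefficients on the numbered chromosomes alone. They also include both spacings after merging intervals that overlap or touch, since no intervals of a list did so. In each alternative the share of sperm-only peaks found in mbt stayed above that of one-cell-only peaks. Limiting lists to equal numbers gave 66.2% shared for sperm and for one-cell embryos, 60.2% of sperm-only and 27.2% of one-cell-only peaks in mbt, a one-cell coefficient of variation of 49.0% and a one-cell spacing of 7782 bp. Keeping the upper part of each list by score, from its median up, gave 77.1% of sperm and 41.6% of one-cell peaks shared, 77.0% and 20.4% in mbt, coefficients of 59.3% and 50.3%, and spacings of 14627 bp and 8312 bp. An overlap of 100 bp gave 74.1%, 40.1%, 59.6% and 25.5%, and centers within 1000 bp 91.1%, 50.5%, 57.6% and 33.6%, in the order sperm shared, one-cell shared, sperm-only in mbt and one-cell-only in mbt. Without chromosome 4, 81.3% of sperm peaks were shared, 63.4% of sperm-only peaks were in mbt, the coefficients were 47.7% and 36.7%, and the spacings 7823 bp and 4638 bp. The numbered chromosomes alone gave spacings of 7936 bp and 4696 bp. Windows of 2 Mb gave coefficients of 45.8% and 35.4%, and windows of 0.5 Mb 51.7% and 40.1%. Of the alternatives chosen after seeing the data, an mbt center within 1000 bp gave 76.4% and 40.6%, and leaving out sperm-only peaks near a one-cell center gave 52.7%. No paired analysis was possible because each condition has 1 library. The number of reads behind a peak is not in the lists, so neither depth nor the shared control could be adjusted for, and their part in the length of the one-cell list was not tested.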

Other observations

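One-cell embryos and mbt each had a single peak on the mitochondrial sequence, and sperm, 3dpf, brain, eye, heart and liver had none. The one-cell peak lay at chrM:2281-2481, with a score of 63.57 at percentile 84.4 of its list, and the mbt peak at chrM:10338-10538, with a score of 39.69 at percentile 64.8. They did not overlap.

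On sequences outside the numbered chromosomes, limiting the lists to equal numbers turned the order of the unmatched shares. They were 41.7% of 4163 sperm peaks (95% CI 40.2 to 43.2) and 31.3% of 3536 one-cell peaks (95% CI 29.8 to 32.9), against 24.1% and 53.0% in the full lists.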
